A study of Homo sapiens with 30 samples.

Results

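The E2F and retinoblastoma family was followed through 10 genes, chosen by their gene identifiers among the 39359 genes of the count table: the E2F transcription factors *E2F1*, *E2F2*, *E2F3*, *E2F4*, *E2F5*, *E2F7* and *E2F8*, and the pocket proteins *RB1*, *RBL1* (p107) and *RBL2* (p130). All 10 passed the filter on low counts and were among the 21335 genes tested. The cells were H1299, a human lung carcinoma line without p53, grown at passages between 7 and 12 and transfected transiently with a vector whose GFP reporter was used to sort the transfected cells at 6 h or 24 h. Control cells carried pGFP, which expresses GFP alone. The other groups carried a vector for wild type p53, one for the RW mutant, in which an arginine of the DNA-binding domain is replaced by tryptophan, or one called p53 O6-meG, in which a methylated guanine lies on the template strand of the same codon. The cells of p53 O6-meG kept active AGT, the protein that repairs this lesion. The p53 TM cells (for transcriptional mutagenesis) carried this lesion vector too and were treated, alone among the groups, with the AGT inhibitor O6-bzG at 10 µM before transfection, so the lesion and the inhibitor act together in this group and no group had the inhibitor alone. Each of the 10 groups had 3 libraries of total RNA. At 6 h a pair of libraries, the second replicates of p53 TM and p53 O6-meG, carry titles whose parts name different groups, so they were left out of all tests and 28 of the 30 libraries were fitted; p53 O6-meG and p53 TM thus have n = 2 at 6 h.

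E2F factors bind DNA as partners of DP proteins, except *E2F7* and *E2F8*, which bind on their own and act as repressors. *E2F1*, *E2F2* and *E2F3* are the classical activators of genes for DNA replication, and *E2F4* and *E2F5* act mostly as repressors in complex with pocket proteins. RB1 holds the activator E2Fs in check until cyclin-dependent kinases phosphorylate it, and RBL1 and RBL2 join E2F4 or E2F5 and the MuvB core in the DREAM complex, which silences cell cycle genes in resting cells. Active p53 is known to feed into this system through *CDKN1A*, which encodes the kinase inhibitor p21, and *E2F7* is a known p53 target.

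Because several of these genes are themselves E2F-regulated, the stretch just before the start of transcription is shown for 5 members that changed at 24 h with wild type p53, 3 that fell (*E2F1*, *E2F2* and *RBL1*) and 2 that rose (*E2F3* and *E2F7*). Each line gives the 130 bases before the RefSeq start (GRCh38.p14), in the direction of the gene. The positions are chr20:33686386-33686515 (minus strand) for *E2F1*, chr1:23531234-23531363 (minus) for *E2F2*, chr20:37095998-37096127 (minus) for *RBL1*, chr6:20401749-20401878 (plus) for *E2F3* and chr12:77065570-77065699 (minus) for *E2F7*. Capitals mark an E2F site (TTTGGCGC, TTTCCCGC, TTTCGCGC or TTTGCCGC, on either strand) or a cell cycle genes homology region, the CHR (TTTGAA or TTCGAA, either strand), an element that MuvB complexes bind.
E2F1: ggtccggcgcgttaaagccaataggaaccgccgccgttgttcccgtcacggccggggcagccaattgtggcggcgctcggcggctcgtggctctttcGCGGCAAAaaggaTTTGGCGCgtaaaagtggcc
E2F2: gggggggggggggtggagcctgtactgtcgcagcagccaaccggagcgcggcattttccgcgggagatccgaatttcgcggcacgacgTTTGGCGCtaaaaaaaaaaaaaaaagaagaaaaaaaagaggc
RBL1: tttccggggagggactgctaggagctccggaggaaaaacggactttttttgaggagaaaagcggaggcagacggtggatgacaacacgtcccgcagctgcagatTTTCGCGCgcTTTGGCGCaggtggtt
E2F3: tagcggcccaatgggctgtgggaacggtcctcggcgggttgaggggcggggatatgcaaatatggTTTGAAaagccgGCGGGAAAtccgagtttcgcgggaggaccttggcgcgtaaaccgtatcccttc
E2F7: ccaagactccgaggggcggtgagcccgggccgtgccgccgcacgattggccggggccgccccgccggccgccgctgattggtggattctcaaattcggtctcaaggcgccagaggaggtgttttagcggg

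At least 1 of the 4 E2F sites lay within 250 bases before a start in 4 of the 8 members with a promoter entry, namely *E2F1*, *E2F2*, *E2F3* and *RBL1*, against 2.79% of all 35116 promoter windows of that length. The members are counted by gene and the share by window. *E2F3* also has a second entry, which holds no such site. No entry of *E2F4*, *E2F7*, *RB1* or *RBL2* held one, and *RBL2* too has a second entry. *E2F1* and *RBL1* each held 2 sites. TTTGGCGC, which 0.55% of the windows hold, began 20 bases before the start in *E2F1*, 42 bases before it in *E2F2* and 16 bases before it in *RBL1*. The CHR was matched in *E2F3*, 65 bases before its start, and in 14.3% of all windows. The 250 bases of *E2F7* held none of the E2F or CHR letters searched and 4 CCAAT boxes, a motif that 32% of all windows hold. The 4 members that hold an E2F site did not all move the same way: *E2F1*, *E2F2* and *RBL1* fell and *E2F3* rose at 24 h, as given below. *E2F5* and *E2F8* had no entry, and the entry for *RB1* lies inside the gene, away from its annotated start. These matches describe letters and no binding was measured.

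In the pGFP cells at 6 h the family was led by *E2F1* and *E2F4*. Per kilobase of exon, *E2F1* stood at 41.6 CPM and *E2F4* at 39.3 CPM on average, with overlapping libraries. *E2F3* followed at 17.7 CPM per kb, then *E2F5* at 13.7 and *RB1* at 12.9, whose libraries overlapped, and *RBL1* at 10.8, *E2F7* at 10.3, *E2F2* at 8.89, *RBL2* at 6.90 and *E2F8* at 4.98 CPM per kb, each apart from its neighbours in all 3 libraries. The 2 most abundant E2Fs thus belong to different functional classes, one an activator and one a partner of the pocket proteins. CPM here are read counts scaled to the library size after TMM normalization.

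From 6 h to 24 h the control cells themselves changed. With pGFP alone, 7 members were lower at 24 h and none was higher (edgeR quasi-likelihood test, Benjamini-Hochberg adjusted P under 0.05), while 41.2% of all genes tested were called and 22.3% of all genes tested were lower. *E2F2* fell most, from 48.6 ± 1.42 to 26.97 ± 2.39 CPM (SD, n = 3 each), a log2 fold change of −0.85 (SE 0.12, adjusted P = 7.90e-06). *E2F1*, *E2F3*, *E2F4*, *E2F5*, *E2F7* and *RBL1* fell by 0.30 to 0.67 on the log2 scale. The fall of *E2F7* (−0.37, adjusted P = 0.0315) was lost in 10 of the 36 alternative settings, among them DESeq2 (adjusted P = 0.052) and the omission of each pGFP library at 6 h or of replicate 2 or 3 of pGFP at 24 h (adjusted P up to 0.096), that of *E2F5* without replicate 1 of pGFP at 24 h (adjusted P = 0.052) and that of *RBL1* without its replicate 3 (adjusted P = 0.053). *RB1* (0.14, adjusted P = 0.30), *RBL2* (−0.11, adjusted P = 0.29) and *E2F8* (−0.13, adjusted P = 0.49) did not pass the test. Effects of p53 are therefore given against pGFP of the same time. Collection, culture time and library preparation cannot be told apart in the comparison of the times.

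With wild type p53 at 6 h the gene of the family that passed the test was *E2F7*. At this time the pGFP libraries held 63.0, 64.3 and 67.3 CPM of *E2F7* and the wild type p53 libraries held 135.6, 135.8 and 148.1 CPM. All 3 wild type p53 libraries thus lay far above the controls, a 2.15-fold rise (log2 fold change 1.11, 95% confidence interval 0.83 to 1.38, SE 0.13, edgeR quasi-likelihood adjusted P = 1.13e-06). Of all genes tested, 10.3% were called in this comparison and 8.68% were higher, so a count of 1 among the 10 members is at that share. The same difference was found against RW mutant p53, whose libraries held 61.3, 62.9 and 71.4 CPM (log2 fold change 1.1, SE 0.13, adjusted P = 1.32e-06, with 9.94% of all genes called and 1 member).

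The remaining 9 members did not pass the test with wild type p53 at 6 h. *RB1* came closest, at 99.5, 107.6 and 103.6 CPM against 75.1, 84.2 and 89.4 CPM with pGFP (log2 fold change 0.32, SE 0.11, adjusted P = 0.056), and its libraries did not overlap; it was called in 8 of the 36 alternative settings. *E2F8* (−0.33, adjusted P = 0.18) and *E2F2* (−0.21, adjusted P = 0.39) did not pass either. Counting *RBL2* and *E2F7*, the libraries of 5 members did not overlap between the groups, where 31.5% of all genes did not. A fit of only the groups compared, and likewise the replicate block, called 4 members in place of 1, adding *RB1*, *E2F8* and *E2F2* with the signs given.

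The vector with O6-meG in cells with active AGT gave the same single call at 6 h. *E2F7* stood at 146.4 and 125.7 CPM, a log2 fold change of 1.07 against pGFP (SE 0.15, adjusted P = 1.65e-05), and it was the 1 member called, with 4.85% of all genes called. Against wild type p53 the difference in *E2F7* was −0.04 (95% confidence interval −0.35 to 0.27), and no member was called. In that comparison 0% of all genes were called by edgeR, DESeq2 called none of the members either, and 1 member, *E2F2*, had an unadjusted P under 0.05, as did 9.99% of all genes.

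In p53 TM cells *E2F7* was less induced at 6 h. Its libraries held 86.1 and 87.2 CPM, above all pGFP libraries and below all wild type p53 libraries. It was lower than with wild type p53 by 0.69 on the log2 scale (fitted log2 fold change −0.69, SE 0.15, adjusted P = 0.00258), the 1 member called among 10.9% of all genes. Against pGFP the log2 fold change was 0.42 (SE 0.15, adjusted P = 0.60), which did not pass the test, and none of the members was called, beside 0.202% of all genes. At an unadjusted P under 0.05 *E2F7* was the 1 member, beside 5.98% of all genes, and DESeq2 called none of the members. Expressed as a share of the mean rise with wild type p53, the p53 TM libraries kept 29.0% ± 1.03 (SD, n = 2) and the p53 O6-meG libraries 94.9% ± 19.5 (n = 2).

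The call between p53 TM and wild type p53 at 6 h was lost in 1 of the 36 alternative settings, which concerns the pair of libraries with conflicting titles. The library whose title begins with p53 TM held 77.5 CPM of *E2F7* and the one whose title begins with p53 O6-meG held 138.5 CPM. When both were placed by the genotype field, the log2 fold change of *E2F7* was −0.43 (SE 0.19, adjusted P = 0.26) and no member was called. In the same pair the library whose title begins with p53 TM held 50.2 CPM of *CDKN1A*, a p53 target, beside 65.9 and 57.9 CPM in the other p53 TM libraries at 6 h, and the one whose title begins with p53 O6-meG held 249.7 CPM, beside 268.8 and 260.7 CPM in the other p53 O6-meG libraries. On *CDKN1A* as on *E2F7* each library of the pair thus lay near the group that its title names first, which is the reverse of the genotype field. The values played no part in leaving the pair unassigned.

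RW mutant p53 gave no call in the family at either time. None of the members was called at 6 h or at 24 h, with 0.00469% of all genes called at each time, none had an unadjusted P under 0.05 (1.02% of all genes had at 6 h and 0.975% at 24 h), and DESeq2 called none. Against RW mutant p53 in place of pGFP, wild type p53 gave 8 calls at 24 h, with 35.6% of all genes called, from −0.94 for *E2F1* to 0.75 for *RB1*. Of these calls that of *E2F7* was lost in 3 of the 36 alternative settings (adjusted P up to 0.19) and that of *RBL2* in 1 (adjusted P = 0.16). For *E2F7* the log2 fold change of RW mutant p53 against pGFP was 0.01 at 6 h (95% confidence interval −0.27 to 0.28) and 0.02 at 24 h (−0.26 to 0.29). The widest interval of RW mutant p53 against pGFP at 24 h was that of *E2F5*, from −0.41 to 0.37, so a change of that size would not have been detected for this gene.

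**Figure D1:**
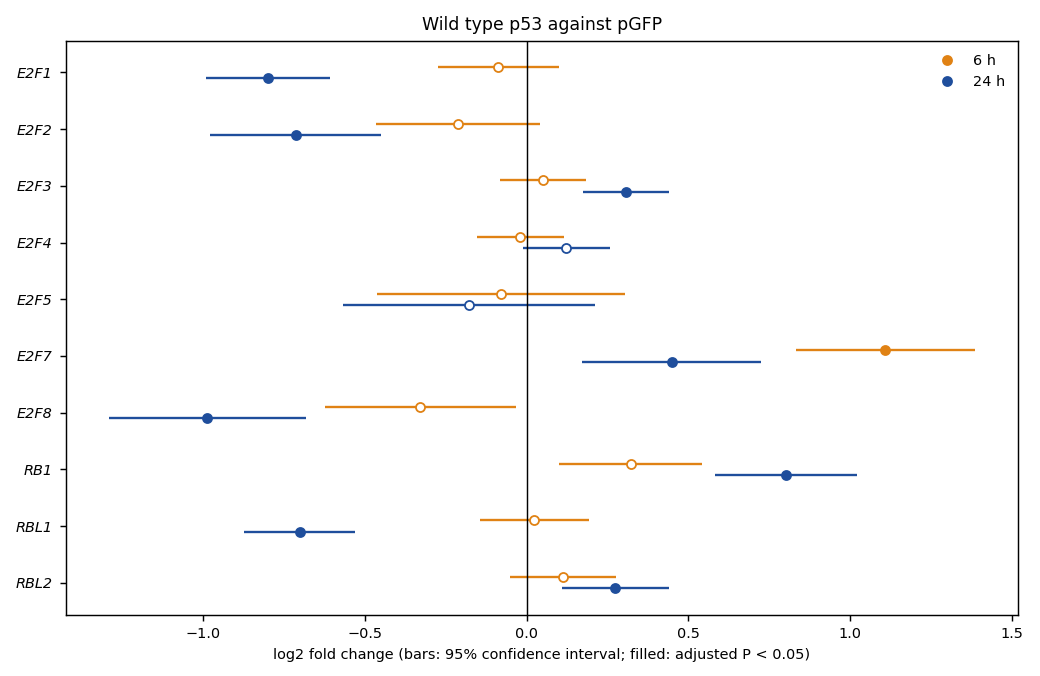
Log2 fold change of each gene with wild type p53 against pGFP at 6 h (orange) and 24 h (blue). Bars are 95% confidence intervals from the fit of all 28 libraries, with 3 libraries in each group shown. Filled points passed an adjusted P of 0.05. *E2F7* is the 1 filled point at 6 h, at 1.11, and 8 of the 10 genes are filled at 24 h, 4 on each side of 0.

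By 24 h wild type p53 had moved most of the family, in opposite directions. Of the 10 members 8 were called, 4 higher and 4 lower, where 35% of all genes were called, 20.5% higher and 14.5% lower. The main fit behind these calls does not pair libraries by replicate number, and a fit with that number as a block was run as an alternative. *E2F1*, *E2F2*, *E2F8* and *RBL1* fell, and *RB1*, *E2F7*, *E2F3* and *RBL2* rose. None was past a 2-fold change in the main fit, where 11.2% of all genes were called and at least 2-fold apart. *E2F8* lay close to that limit, with log2 fold changes from −1.10 to −0.92 over the alternative settings. In bulk RNA a lower share of cells that express a gene and a lower level per cell cannot be told apart.

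Among the activators, *E2F1* held 74.5, 77.3 and 73.1 CPM with pGFP and 36.3, 45.5 and 47.5 CPM with wild type p53 at 24 h. All wild type p53 libraries lay below all pGFP libraries, a 1.74-fold fall (log2 fold change −0.80, SE 0.09, adjusted P = 1.57e-07). *E2F2* went from 25.4, 29.7 and 25.8 CPM to 13.4, 17.7 and 18.2 CPM, again without overlap (−0.71, SE 0.13, adjusted P = 7.30e-05). The other activator gene, *E2F3*, went the other way. It held 62.4, 66.8 and 64.5 CPM with pGFP and 81.3, 77.5 and 81.0 CPM with wild type p53 (0.31, SE 0.06, adjusted P = 4.74e-04). Its call was lost without a filter on low counts (log2 fold change 0.22, adjusted P = 0.054).

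The atypical repressors also parted. *E2F8* showed the largest fall of the family, from 19.2, 19.8 and 17.4 CPM to 7.97, 9.51 and 10.9 CPM (−0.99, SE 0.15, adjusted P = 7.17e-06). *E2F7* held 53.2, 47.7 and 50.2 CPM with pGFP and 83.0, 55.8 and 67.4 CPM with wild type p53 (0.45, SE 0.13, adjusted P = 0.0106). Replicate 1 was the highest of the 3, and without it the log2 fold change was 0.25 (adjusted P = 0.17). The same replicate number was also highest with p53 O6-meG (86.0 CPM) and p53 TM (82.1 CPM), while with pGFP it held 53.2 CPM. The ratio of *E2F7* to *E2F8* per kilobase, 1.77 ± 0.162 with pGFP, was 4.92 ± 1.67 with wild type p53 (SD, n = 3 each), and its lowest wild type library, at 3.86, lay above the highest pGFP library, at 1.90.

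*E2F4* and *E2F5*, which pair with the pocket proteins, did not pass the test at 24 h. *E2F4* stood at 96.6 ± 8.49 CPM with pGFP and 105.2 ± 6.03 CPM with wild type p53 (log2 fold change 0.12, adjusted P = 0.16), and *E2F5* at 51.7 ± 9.95 and 45.8 ± 10.4 CPM (−0.18, adjusted P = 0.52). At 24 h libraries of the same replicate number deviate together, and replicate 1 of *E2F5* was the lowest library in every group, between 31.5 and 40.6 CPM. With the replicate number as a block all 10 members were called, *E2F4* higher (log2 fold change 0.12, adjusted P = 0.0282) and *E2F5* lower (−0.18, adjusted P = 0.0298). Of the exons of *E2F5*, 18.84% overlap a gene on the opposite strand, mostly *RBIS*, and its level is uncertain because no source used here says whether the counting used strand.

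The pocket protein genes changed their proportions. *RB1* showed the largest rise of the family, from 87.5, 97.6 and 89.5 CPM with pGFP to 179.4, 158.8 and 140.4 CPM with wild type p53, 1.74-fold (log2 fold change 0.80, SE 0.11, adjusted P = 1.35e-06). *RBL1* fell from 57.0, 54.5 and 45.9 CPM to 32.4, 33.2 and 31.2 CPM (−0.70, SE 0.08, adjusted P = 2.24e-07). *RBL2* held 48.4, 54.2 and 52.98 CPM with pGFP and 59.9, 67.1 and 61.1 CPM with wild type p53 (0.27, SE 0.08, adjusted P = 0.00867).

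*RB1* and *RBL2* thus rose while *RBL1* fell, and the libraries of 8 members, these 3 included, did not overlap between the groups, where 43.6% of all genes did not. Per kilobase *RBL1* was above *RBL2* in every pGFP library at 24 h, where the ratio of *RBL2* to *RBL1* was 0.734 ± 0.112, and below it in every wild type p53 library, where the ratio was 1.43 ± 0.0638 (SD, n = 3 each). The order within pGFP depends on the division by length. In CPM, *RBL2* was above *RBL1* in replicate 3 of pGFP (52.98 and 45.9 CPM). The ratio of *RB1* to *E2F1* per kilobase went from 0.510 ± 0.0184 to 1.59 ± 0.430. The call of *RBL2* was lost without replicate 1 of pGFP (adjusted P = 0.056), without replicate 2 of wild type p53 (adjusted P = 0.057) and without the filter on low counts (0.19, adjusted P = 0.21). Of its exons 16.4% overlap genes on the opposite strand, among them *AKTIP*.

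The order of the family per kilobase differed accordingly between the groups at 24 h. With pGFP *E2F1* led at 27.9 CPM per kb, overlapping *E2F4* at 26.9, followed by *RB1* at 14.2. With wild type p53 *E2F4* led at 29.3 CPM per kb, overlapping *RB1* at 24.8, and *E2F1* came after them at 16.0, overlapping *E2F3* at 15.4. *E2F2* and *E2F8* were the lowest in both groups, with overlapping libraries, at 4.94 and 4.54 CPM per kb with pGFP and at 3.01 and 2.29 CPM per kb with wild type p53.

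For 3 members the effect of wild type p53 itself differed between the times, in a test of the interaction that called 6.51% of all genes. *E2F1*, uncalled at 6 h (−0.09), had an effect more negative by 0.71 at 24 h (difference of log2 fold changes −0.71, SE 0.13, adjusted P = 0.00159), and *RBL1* (0.02 at 6 h) one more negative by 0.73 (−0.73, SE 0.12, adjusted P = 5.26e-04). *E2F7* went the other way in time, with a smaller rise at 24 h than at 6 h (−0.66, SE 0.19, adjusted P = 0.0351). *RB1* (0.48, adjusted P = 0.056), *E2F8* (−0.66, adjusted P = 0.054), *E2F3* (0.26, adjusted P = 0.097) and *E2F2* (−0.50, adjusted P = 0.095) did not pass. With the replicate number as a block these 4 were called too, at an adjusted P between 0.00137 (*E2F2*) and 0.0247 (*E2F3*), so that 7 members differed.

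The p53 O6-meG cells at 24 h showed the same 8 calls as wild type p53, in the same directions, where 29.5% of all genes were called, 18.1% higher and 11.3% lower. Their log2 fold changes against the shared pGFP libraries were −0.68 for *E2F1*, −0.63 for *E2F2*, −0.94 for *E2F8*, −0.51 for *RBL1*, 0.81 for *RB1*, 0.47 for *E2F7*, 0.24 for *E2F3* and 0.33 for *RBL2*. With the replicate block *E2F4* (0.13, adjusted P = 0.0270) and *E2F5* (−0.19, adjusted P = 0.0245) were called as well. The call of *E2F7* was lost in 2 of the 36 alternative settings, and without replicate 1 of p53 O6-meG its value was 0.29 (adjusted P = 0.11). *E2F3* lost its call without a filter on low counts (0.16, adjusted P = 0.23) and with only the compared groups fitted (0.23, adjusted P = 0.065). *RBL2* lost its call in 1 setting (adjusted P = 0.069). Directly against wild type p53 no member was called, beside 0.00937% of all genes. At an unadjusted P under 0.05 *RBL1* was the 1 member, beside 4.96% of all genes, at 0.20 (95% confidence interval 0.02 to 0.37, adjusted P = 0.99), and DESeq2 called none. For *RB1* the interval of the difference was −0.21 to 0.23 and for *E2F1* −0.07 to 0.31.

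**Figure D2:**
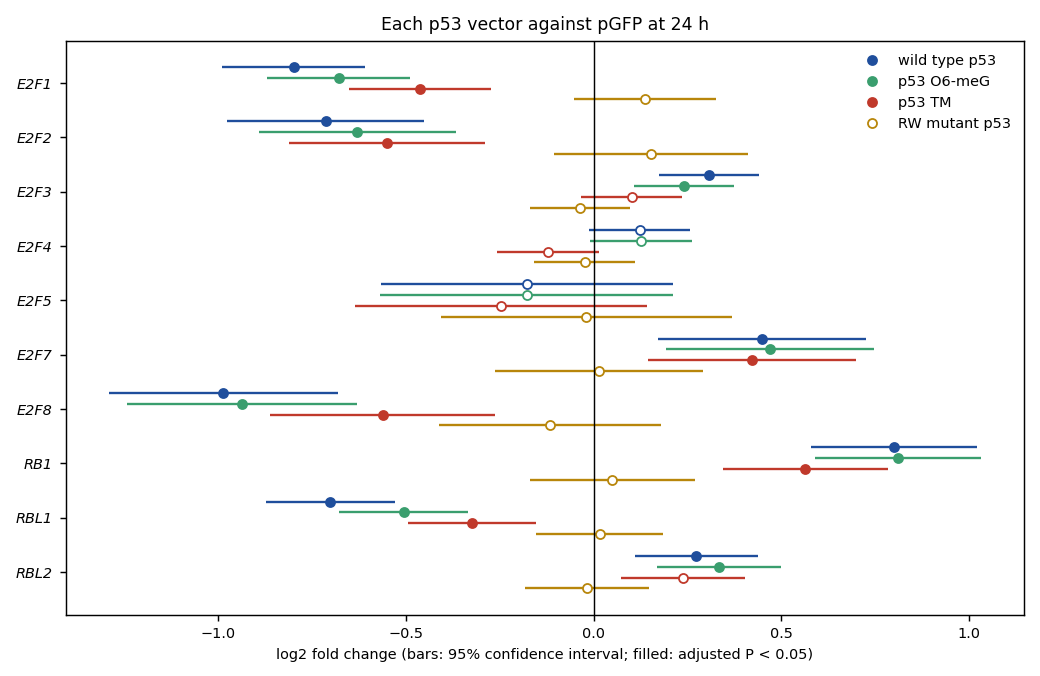
Log2 fold change of each gene at 24 h against the same 3 pGFP libraries, for wild type p53 (blue), p53 O6-meG (green), p53 TM (red) and RW mutant p53 (ochre). Bars are 95% confidence intervals and filled points passed an adjusted P of 0.05. *E2F1* lies at −0.80, −0.68 and −0.46 with the first 3 vectors and at 0.14, uncalled, with RW mutant p53.

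With p53 TM at 24 h fewer members passed the test against pGFP. The 6 called were *E2F1*, *E2F2*, *E2F8* and *RBL1*, which were lower, and *RB1* and *E2F7*, which were higher, where 10.7% of all genes were called, 9% higher and 1.68% lower. *RB1* held 159.9, 129.3 and 116.9 CPM (log2 fold change 0.56, SE 0.11, adjusted P = 5.71e-04), all above pGFP. *E2F1* held 49.9, 56.1 and 57.1 CPM (−0.46, SE 0.09, adjusted P = 9.66e-04), all below pGFP. The fall of *E2F2* was 0.55, that of *E2F8* 0.56 and that of *RBL1* 0.32 on the log2 scale (fitted −0.55, −0.56 and −0.32).

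*E2F7* was the least secure of these calls, at 0.42 (SE 0.13, adjusted P = 0.0429). Without replicate 1 of p53 TM it was 0.26 (adjusted P = 0.33), and it was uncalled in 18 of the 36 alternative settings. That of *E2F8* was lost without the same library (−0.45, adjusted P = 0.091). That of *RBL1* was lost in 4 of the 36 settings. Among them were the omission of replicate 3 of p53 TM (adjusted P = 0.058) and of replicate 1 or 2 of pGFP (adjusted P = 0.077 and 0.051). *RBL2* (0.24, adjusted P = 0.058) and *E2F3* (0.10, adjusted P = 0.42) did not pass. With the replicate block *RBL2* (0.24, adjusted P = 6.46e-04) and *E2F5* (−0.25, adjusted P = 0.00772) were also called.

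The difference between p53 TM and wild type p53 was tested directly. At 24 h 5 members were called, 3 higher and 2 lower with p53 TM, where 21.2% of all genes were called, 9.29% higher and 11.9% lower. *RBL1* was higher with p53 TM, at 44.9, 42.1 and 38.7 CPM against 32.4, 33.2 and 31.2 CPM (log2 fold change 0.38, SE 0.08, adjusted P = 0.00190). *E2F1* was also higher, at 49.9, 56.1 and 57.1 CPM against 36.3, 45.5 and 47.5 CPM (0.34, SE 0.09, adjusted P = 0.0105). In both genes the p53 TM libraries lay above all wild type p53 libraries.

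*E2F8* was higher with p53 TM as well, at 10.5, 13.3 and 14.3 CPM against 7.97, 9.51 and 10.9 CPM (0.42, SE 0.15, adjusted P = 0.0423), but replicate 1 of p53 TM overlapped the wild type p53 libraries. *E2F3* (−0.21, SE 0.06, adjusted P = 0.0236) and *E2F4* (−0.24, SE 0.07, adjusted P = 0.00906) were lower with p53 TM. *E2F4* stood at 88.8 ± 2.5 CPM with p53 TM, where it had not passed the test against pGFP (−0.12, adjusted P = 0.31). For *RB1* the difference was −0.24 (SE 0.11, adjusted P = 0.12), and −0.24 with an adjusted P of 0.0243 under the replicate block. It was called at −0.37 (adjusted P = 0.0122) without replicate 1 of p53 TM and at −0.32 (adjusted P = 0.0465) without replicate 3 of wild type p53. *E2F7* (−0.03, 95% confidence interval −0.30 to 0.25), *E2F2* (0.16, −0.10 to 0.43), *RBL2* (−0.04, −0.20 to 0.13) and *E2F5* (−0.07, −0.46 to 0.32) were not called.

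The number of calls between p53 TM and wild type p53 rested on single libraries. It was 2 without replicate 1 of wild type p53, 2 without replicate 3 of p53 TM and 3 without replicate 2 of p53 TM, and 1 when only the groups compared were fitted. *RBL1* was called in all 36 alternatives. The call was lost in 10 of them for *E2F8*, in 6 for *E2F3*, in 3 for *E2F1* and in 3 for *E2F4*. In 28 of the 36 a single library is left out, mostly one from a group outside this comparison. Against p53 O6-meG, which carried the same vector without the inhibitor treatment, *E2F4* was the 1 member called (−0.25, SE 0.07, adjusted P = 0.0163), with 10% of all genes called. The inhibitor was given in DMSO, and the study's methods name no DMSO treatment of the other groups. With the replicate block 5 members were called: *E2F1* (0.22, adjusted P = 0.00878), *E2F8* (0.38, adjusted P = 0.0250) and *RBL1* (0.18, adjusted P = 0.0310) were higher with p53 TM, and *RB1* (−0.25, adjusted P = 0.0272) and *E2F4* were lower.

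As a share of the mean change with wild type p53 at 24 h, p53 TM libraries kept 64.6% ± 12.4 for *E2F1*, 65.4% ± 20.9 for *E2F8*, 64.5% ± 32.5 for *RB1* and 52.2% ± 15.3 for *RBL1* (SD, n = 3). The share was 93.3% ± 69.1 for *E2F7*, 85.7% ± 36.5 for *RBL2*, 81.3% ± 22.7 for *E2F2* and 30.6% ± 24.0 for *E2F3*. These shares use the same pGFP and wild type p53 means for every library and their spread does not include the error of those means. For *RB1* replicates 1, 2 and 3 of p53 TM gave 101%, 55.5% and 37.4%, where the same-numbered wild type p53 libraries gave 129%, 98.9% and 71.96%, so p53 TM was lower in each of the 3 pairs.

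Upstream of the pocket proteins, *CDKN1A* served as the check of p53 activity. It stood at 255.3 ± 11.1 CPM with wild type p53 and 40.0 ± 5.17 CPM with pGFP at 6 h (log2 fold change 2.67, adjusted P = 9.95e-12), and at 615.0 ± 151 and 48.0 ± 2.98 CPM at 24 h (3.68, adjusted P = 5.43e-14). With p53 TM at 24 h it held 360.0 ± 66.8 CPM, below wild type p53 by 0.77 on the log2 scale (log2 fold change −0.77, adjusted P = 7.36e-04). Of the 7 CDK inhibitor genes listed, 1 rose and 1 fell with wild type p53 at 24 h, where 20.5% of all genes rose and 14.5% fell, and the median log2 fold change was 0.07 beside 0.01 for all genes. The gene that fell was *CDKN2C*, which encodes p18, an inhibitor of CDK4 and CDK6 (−0.65, adjusted P = 1.47e-04). *CDKN1C* (0.28, adjusted P = 0.41) and *CDKN2D* (−0.11, adjusted P = 0.30) did not pass.

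Of the 8 kinase and cyclin genes that act on the pocket proteins, 1 rose and 3 fell with wild type p53 at 24 h (median −0.13), beside the 35% of all genes called. *CCNE2*, a cyclin E gene and itself an E2F target, fell from 75.1 ± 5.92 to 25.7 ± 1.09 CPM (−1.55, SE 0.11, adjusted P = 3.33e-11), and it stood at 55.3 ± 3.40 CPM with p53 TM, 1.11 above wild type p53 on the log2 scale (SE 0.11, adjusted P = 2.67e-07). *CCNE1* fell by less (−0.30, adjusted P = 0.0251). *CCND1*, the cyclin D1 gene, rose (0.40, adjusted P = 0.0439), and *CDK6* did not pass (0.18, adjusted P = 0.46). Of the dimerization partners, *TFDP2* rose (0.19, adjusted P = 0.0260) and *TFDP1* was just short of the threshold (−0.21, adjusted P = 0.0500498).

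The 7 genes of the MuvB core and its activators gave 1 rise and 2 falls with wild type p53 at 24 h (median −0.20), a share near the 35% of all genes called. *MYBL2*, which turns MuvB into an activator of mitotic genes, fell (−0.44, adjusted P = 3.19e-05). *LIN54*, the DNA-binding subunit of the core, rose at 24 h (0.46, adjusted P = 0.00130) and at 6 h (0.40, adjusted P = 0.0137). *RBBP4* (0.14, adjusted P = 0.083) and *LIN37* (−0.41, adjusted P = 0.13) did not pass.

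Most genes on the lists of known G1/S targets of E2F and of G2/M genes with CHR elements were lower with wild type p53 at 24 h. Of the 26 G1/S targets, 19 fell, 3 rose and 4 did not pass, where 14.5% of all genes fell and 20.5% rose, with a median log2 fold change of −0.42 beside 0.01 for all genes. Besides *CCNE2*, the lowest was *FBXO5*, an inhibitor of the anaphase-promoting complex (−1.07, SE 0.10, adjusted P = 9.92e-09). The highest were *PCNA*, the replication clamp and a known p53 target (0.78, SE 0.10, adjusted P = 4.08e-07), and *TYMS*, thymidylate synthase (0.36, SE 0.11, adjusted P = 0.00983). These rises were already present at 6 h (*PCNA* 0.57, *TYMS* 0.42), as were falls of *CCNE2* (−0.44) and *FBXO5* (−0.67), and of the 26 genes 3 rose and 2 fell at 6 h, where 10.3% of all genes were called.

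Of 20 G2/M genes with CHR elements, 17 fell with wild type p53 at 24 h, none rose and 3 did not pass (median −0.58), again beside 14.5% of all genes lower. *CDK1*, the mitotic kinase, fell from 129.5 ± 13.7 to 51.8 ± 9.26 CPM (−1.32, SE 0.15, adjusted P = 1.45e-07) and *CENPE*, a kinetochore motor, fell by 0.90 (−0.90, SE 0.12, adjusted P = 2.30e-06). *KIF20A* (0.10, adjusted P = 0.30) and *CDC20* (0.12, adjusted P = 0.56) had the highest values of the list and did not pass. At 6 h 1 of the 20 was called, *KIF20A*, which rose (0.43, adjusted P = 9.25e-05), and the median was −0.01 beside 0.02 for all genes.

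**Figure D3:**
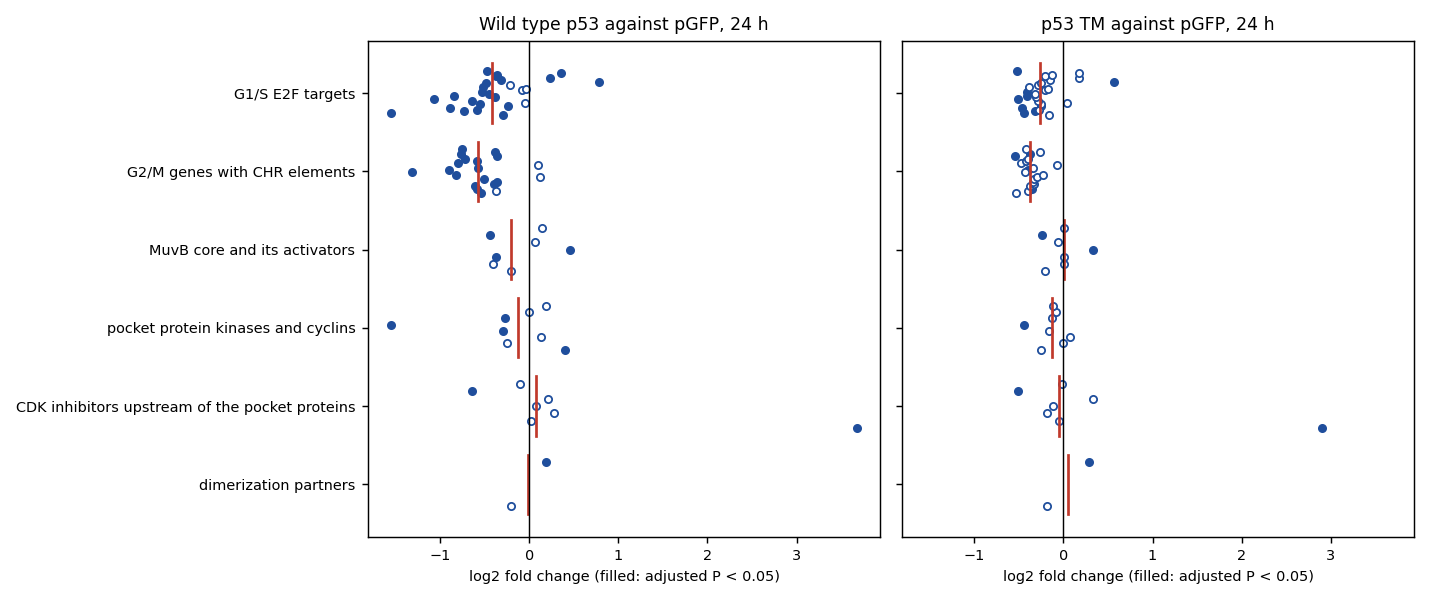
Log2 fold change of the listed genes around the family at 24 h, for wild type p53 (left) and p53 TM (right) against pGFP. Each point is a gene, filled where the adjusted P was under 0.05, and the red lines are list medians. The medians of the G1/S and G2/M lists are −0.42 and −0.58 with wild type p53 and −0.26 and −0.38 with p53 TM, and the far right point is *CDKN1A*.

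With p53 TM at 24 h 8 of the 26 G1/S targets fell and 1 rose (median −0.26 beside 0.02 for all genes), and 4 of the 20 G2/M genes fell (median −0.38), where 1.68% of all genes fell and 9% rose. With p53 O6-meG 18 G1/S targets fell and 2 rose (median −0.34), and 16 G2/M genes fell (median −0.58), where 11.3% of all genes fell and 18.1% rose. Directly against wild type p53, 7 G1/S targets were higher with p53 TM and none was lower (median 0.14), and among the G2/M genes 4 were higher and 1, *CDC20*, was lower (−0.41, adjusted P = 0.0351, median 0.20), where 9.29% of all genes were higher and 11.9% lower. *CDK1* was 0.89 higher with p53 TM than with wild type p53 (adjusted P = 1.72e-04) and *FBXO5* 0.56 higher (adjusted P = 4.43e-04). *PCNA* was at −0.21 (adjusted P = 0.13) in the same comparison. With RW mutant p53 the medians against pGFP at 24 h were 0.08 for the G1/S targets and −0.04 for the G2/M genes.

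Across the 28 fitted libraries the genes most like *RB1* were *STX12* (Pearson's r = 0.973), *TMEM63B* (0.972) and *TAB3* (0.969), and those most like *E2F8* were *ERCC6L* (0.979), *NEIL3* (0.977) and *KIF15* (0.967), on log2 CPM with a pseudocount of 0.1 CPM. Within the family *E2F8* and *RB1* ran against each other (r = −0.96), *E2F1* and *E2F2* ran together (0.98), as did *E2F1* and *RBL1* (0.95). Over the 15 libraries at 24 h *E2F1* and *E2F3* had r = −0.89, while over all 28 libraries, where both fell with time, r was 0.54. These correlations describe libraries that share vectors, times and replicate numbers, so no test was made.

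Between 32302699 and 71950532 reads were counted on genes per library (median 44424643), and the lowest count of any member in any library was 246, for *E2F8*. Of the markers checked, *KRT8* (111 to 181 CPM), *KRT18* (272 to 720 CPM) and *VIM* (1934 to 3581 CPM) were present in every library, the epithelial keratin gene *KRT19* stayed at or below 0.165 CPM, and the leukocyte and endothelial markers *PTPRC*, *PECAM1* and *CDH5* stayed at or below 0.999 CPM.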

How the data were processed

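RNA of 30 samples of sorted H1299 cells was measured by stranded total RNA sequencing with single reads. The values used are raw read counts per gene: the authors aligned reads to hg38 with STAR 2.5.3a and counted them on GENCODE 27 with featureCounts (Subread 1.5.2), per the submitters' processing notes and the study's methods, and deposited the counts with no normalization. Whether the counting used strand is not given in the sources used here. A deposited normalized table was not used. The replicates are biological triplicates per the study's methods.

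Here edgeR 4.0.16 was run in R 4.3.3: filterByExpr kept 21335 of 39359 genes, TMM scaled the libraries, and 10 group means were fitted together over 28 libraries and compared by quasi-likelihood tests. Each comparison's P values received the Benjamini-Hochberg adjustment over its 21335 genes, and a gene was called at an adjusted P under 0.05. The SE is the absolute log2 fold change divided by the square root of the test's F statistic. Confidence intervals use this SE and the total degrees of freedom of the fit. The study's own test was DESeq2 1.20 with a time by vector interaction; DESeq2 1.42.0 was an alternative here. The conflicting titles of the 2 libraries at 6 h were handled by leaving both out, with both placements as alternatives. Coordinates and exon lengths are from GENCODE 44 (38904 of 39359 genes matched) and promoter sequences from RefSeq (GRCh38.p14, 8 of 10 members).

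Other alternatives were DESeq2's size factors, no filter, a fit of the compared groups alone, a minimum of 10 counts in every library, the replicate number as a block, and each library left out. Same-numbered libraries deviated together at 24 h (correlations of deviations 0.371 to 0.838 in 30 of 30 pairs over 0.1), which pairs them there. Of pairs with different numbers at 24 h, 14 of 60 were over 0.1. The main fit does not use this pairing, and the replicate block is the alternative that does. At 6 h, among pGFP, wild type and RW mutant p53, 8 of 9 same-numbered pairs were over 0.1 (median 0.318), beside 2 of 18 pairs with different numbers (median −0.19). Deviations were taken from the group means, so at both times the values for different numbers are not independent of those for the same number. Same-numbered libraries thus went together at 6 h too, less strongly than at 24 h (median 0.648). No 2 libraries of a group were duplicates (chi-square per degree of freedom 5.51 to 41.9 over 26 pairs). In counts simulated for wild type p53 against pGFP at 24 h over 20527 genes, 34.3% of changes of 0.6, 49.3% of 1 and 86.4% of 2 on the log2 scale were recovered, with 6 false calls. The simulation changed 67, 67 and 66 genes at these sizes, while 35% of all genes tested were called in the data. The Benjamini-Hochberg adjustment depends on that share, so these rates do not give the recovery in the data.

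The members and gene lists were chosen with earlier results of these data known. Genes named are the members, *CDKN1A*, the 2 lowest and 2 highest genes of each list (all genes of lists of up to 4) by log2 fold change with wild type p53 at 24 h, and for the largest rise and fall among the members the 3 genes with the highest Pearson correlation. *CD3E*, on the marker list, had no matched row, and 1 result is not reported here.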

Additional observations from a re-analysis of the deposited data

Results flagged for a closer look

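For 3 genes of the family the effect of wild type p53 against pGFP differed between 6 h and 24 h by edgeR's quasi-likelihood test of the interaction (Benjamini-Hochberg adjusted P under 0.05), where 6.51% of all genes did. For *E2F1* the log2 fold change at 24 h minus that at 6 h was −0.71 (adjusted P = 0.00159), from −0.09 at 6 h to −0.80 at 24 h. For *RBL1* it was −0.73 (adjusted P = 5.26e-04), from 0.02 to −0.70. For *E2F7* it was −0.66 (adjusted P = 0.0351), from 1.11 to 0.45. The difference for *E2F1* and for *RBL1* was called in all 36 alternative settings, and that for *E2F7* was lost in 10 of them (adjusted P up to 0.18). No group had more than 3 libraries, so no library was tested for standing apart from its group.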

How the results depend on the processing

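No call of a member reversed under any alternative: of the single-gene values, 5956 kept their side of the threshold, 87 lost a call and 77 gained one. With the replicate number as a block the members called were 4 for wild type p53 against pGFP at 6 h (in place of 1), 2 for p53 O6-meG against pGFP at 6 h (1), 1 for p53 TM against pGFP at 6 h (0), 3 for p53 TM against wild type p53 at 6 h (1), 1 for p53 O6-meG against wild type p53 at 6 h (0), 2 for wild type against RW mutant p53 at 6 h (1), 5 for p53 TM against p53 O6-meG at 24 h (1) and 7 for the interaction (3). The other counts stayed within 1.5 times under the block. Same-numbered libraries deviated together at 6 h too, with a median correlation of 0.318, beside −0.19 for different numbers, a value not independent of the first. That was weaker than the median of 0.648 at 24 h, and at 6 h it was not measured for p53 O6-meG or p53 TM. With only the groups compared in the fit the counts in these comparisons were 4 for wild type p53 against pGFP, 1 for p53 TM against pGFP, 4 for p53 TM against wild type p53 and 4 for wild type against RW mutant p53 at 6 h, 1 for p53 TM against wild type p53 and 0 for p53 TM against p53 O6-meG at 24 h, and 6 for the interaction. Without a filter on low counts p53 TM gave 3 calls against wild type p53 and 0 against p53 O6-meG at 24 h. The interaction gave 6 calls with at least 10 counts in every library and 6 with DESeq2. Placing the conflicting pair by the first part of the title gave 2 calls for wild type p53 against pGFP at 6 h, and placing it by the genotype field gave 0 for p53 TM against wild type p53 at 6 h. The causes were not tested.

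Leaving out each library in turn gave 1 to 2 calls for wild type p53 against pGFP at 6 h (2 without replicate 1 or 3 of p53 O6-meG or of p53 TM at 24 h, or replicate 3 of wild type p53 at 24 h), 2 to 6 for p53 TM against wild type p53 at 24 h, 0 to 3 for p53 TM against p53 O6-meG at 24 h (0 without replicate 2 of p53 TM, 3 without its replicate 1) and 2 to 6 for the interaction (6 without replicate 1 of p53 O6-meG at 24 h, 5 without its replicate 3 and 5 without replicate 1 of p53 TM at 24 h). For wild type p53 against pGFP at 24 h it gave 7 to 9 of 10, and for p53 TM against pGFP 4 to 7. In the simulation 34.3% of changes of 0.6 on the log2 scale were recovered. Its changed genes were drawn from genes of all levels, and they were a far smaller share than the 35% of all genes called in the data. This rate was therefore not measured for the members or at that share. An uncalled member is not shown to be unchanged, and its confidence interval gives the changes that remain possible.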
